A study of Bos taurus with 12 samples.

Results

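GYPC, VWF and SPTB are genes of red blood cells and platelets, examined here for differences in DNA methylation in the blood of dairy cows (Bos taurus). Members were all rows of the authors' deposited site and tile tables that carry 1 of these 3 gene symbols, which gave 184 of 196275 listed cytosines and 8 of 1227 listed tiles of 500 bases. GYPC held 162 of the sites and all 8 tiles, VWF held 17 sites and SPTB held 5 sites. The study compared 6 cows of the mastitis-susceptible group (MSG), which were culled within the year for mastitis complications not identified when blood was taken, with 6 cows of the mastitis-resilient group (MRG), which were of similar age and still in the herd a year later. All 12 cows were kept under the same farm conditions, and each gave 1 blood sample.

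Glycophorin C, the product of GYPC, is a sialoglycoprotein of the red cell membrane that is anchored to the membrane skeleton through a linker protein of that skeleton, the product of EPB41. Beta-spectrin, the product of SPTB, pairs with alpha-spectrin to form the mesh under the red cell membrane, which ankyrin ties to the anion exchanger. Von Willebrand factor, the product of VWF, is made by endothelial cells and megakaryocytes, binds platelets to damaged vessel walls and carries coagulation factor VIII. Mature mammalian red cells and platelets have no nucleus, so DNA from blood comes mainly from white cells, and the values below are not levels of expression. A changed share of cell types and a changed methylation level within a cell type cannot be told apart in whole blood.

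Every value is the percent of reads at a cytosine, or over a tile, that were read as methylated in 1 cow, with hydroxymethylated cytosines read in the same way. The authors' tables list sites and tiles selected on the contrast between the same 12 cows, and the smallest absolute difference in them was 25 percentage points. The differences between groups were therefore used to choose the rows, and they are given as a description with no test. Group values are means ± SD over the 6 cows of a group, after averaging the sites of each cow. Cows are numbered in each group only to name them, and cow 1 of one group has no link to cow 1 of the other.

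Both directions occurred together at GYPC. The percent methylated was higher in MSG at 70 of the 162 GYPC sites (43.2%) and lower at 92, against 52.7% higher over all listed sites. VWF had 7 sites higher and 10 lower in MSG, and all 5 SPTB sites were higher. In the authors' deposited table the absolute differences ran from 25.3 to 69.5 points at GYPC, from 25.3 to 45.9 at VWF and from 29.4 to 35.3 at SPTB. The authors' q-values in that table ran from 2.51e-19 to 0.00866 at GYPC, from 4.66e-08 to 0.0028 at VWF and from 7.03e-05 to 0.00966 at SPTB. The largest q-value over all listed sites was 0.01, so those of the members are small by selection. They are not read here as a measure of the spread between cows. The direction in the authors' table matched the direction of the cow means at each of the 184 sites.

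Separation of all measured cows of one group from all of the other was seen at 1 of the 162 GYPC sites and at no VWF or SPTB site, against 2.36% of all listed sites. That GYPC site, at chr2:79094357-79094357 on the minus strand, had no value in MSG cow 5 or MRG cow 6. Its MSG cows with a value stood at 64.7, 0, 0, 36.4 and 25%, and its MRG cows at 75, 85.7, 66.7, 85.7 and 66.7%. Leaving out 1 cow moved the GYPC count to 32 without MRG cow 6, 9 without MSG cow 1, 3 without MRG cow 2 and 2 without MRG cow 5. The VWF count was 1 without MSG cow 3, MSG cow 4 or MRG cow 5. The share over all listed sites was not counted with a cow left out. These counts therefore have no background, and the 2.36% with all cows is not a measure for them. With all cows, at every other member site the ranges of the groups overlapped or met.

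The gene model of GYPC (ENSBTAG00000014863) lies at chr2:78885394-78934052 on the plus strand of ARS-UCD1.2 and is 48.7 kb long. Its listed sites began 5.63 kb and ended 268 kb downstream of the gene's start, a span of 262 kb in which all 162 listed sites were assigned to GYPC. Inside the gene were 17 sites, all intronic. Intron 1 of 3 held 4 higher and 5 lower sites, intron 2 held 6 higher sites and intron 3 held 2 higher sites. Of the others, 144 were annotated as distal intergenic and 1 as downstream, so most GYPC rows describe DNA beyond the gene's end and carry its symbol as the nearest gene. No GYPC site lay in a promoter or exon.

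**Figure D1:**
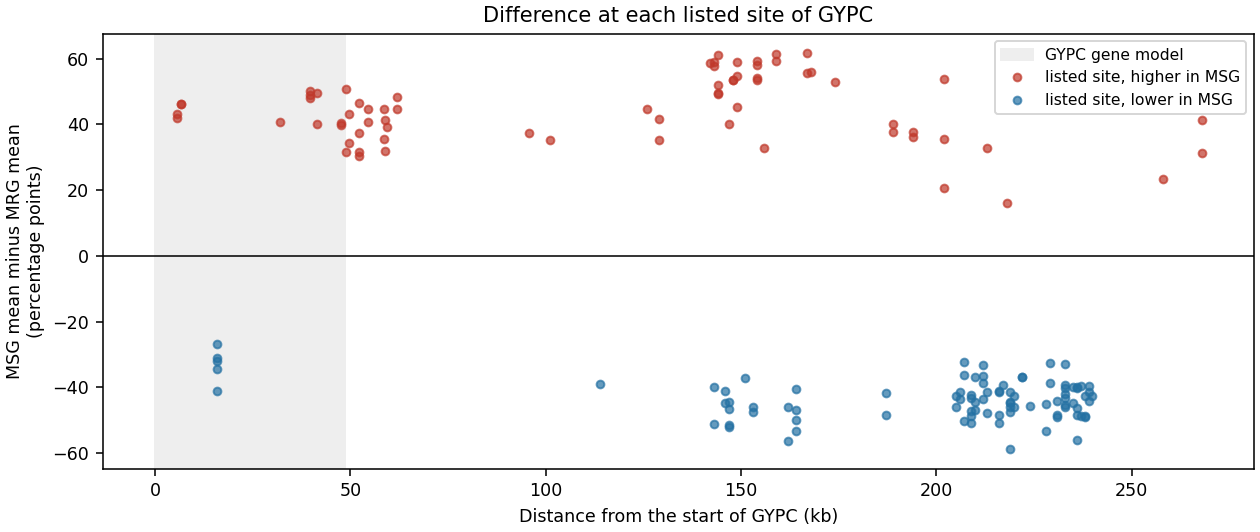
Difference in percent methylated, MSG mean minus MRG mean (vertical axis, percentage points), at each of the 162 GYPC sites against distance from the start of the gene (horizontal axis, kb), with the gene model shaded. Sites lower in MSG appear in intron 1, at 114 kb and between 143 and 240 kb, while sites higher in MSG run from 5.63 to 268 kb.

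At the 70 GYPC sites that were higher in MSG, the mean level of MSG cows 1 to 6 was 50.4, 89.3, 86.9, 46.8, 89.1 and 91.2%. The MRG cows 1 to 6 stood at 24.8, 43.1, 24.1, 2.8, 3.2 and 88.5%. MSG cows 2, 3, 5 and 6 lay near the top of the scale and MSG cows 1 and 4 near the middle, while MRG ran from nearly unmethylated to the level of the highest MSG cows, and MRG cow 6 overlapped them. MSG averaged 75.6 ± 21.0% and MRG 31.1 ± 32.0% (SD, n = 6 per group), a difference of 44.6 points.

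At the 92 GYPC sites that were lower in MSG, cows 1 to 6 of that group averaged 87.2, 2.82, 2.23, 48.2, 1.05 and 47.8%. The MRG cows averaged 87.4, 88.9, 89.4, 89.7, 88.2 and 2.99%. MSG cows 2, 3 and 5 and MRG cow 6 were almost unmethylated, MSG cows 4 and 6 were near the middle of the scale, and MSG cow 1 stood at the level of MRG cows 1 to 5. This gave 31.5 ± 35.4% for MSG against 74.4 ± 35.0% for MRG (SD, n = 6 per group), a difference of -42.9 points. Leaving out each cow in turn gave differences from -36.8 points without MSG cow 5 to -57.2 points without MRG cow 6. At the higher sites they ran from 38.9 points without MRG cow 4 to 56.0 points without MRG cow 6. Averaged over all 162 sites, where the directions offset each other, MSG stood at 50.7 ± 14.6% and MRG at 56.2 ± 9.72%, and the difference of -5.44 points was smaller than either SD.

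**Figure D2:**
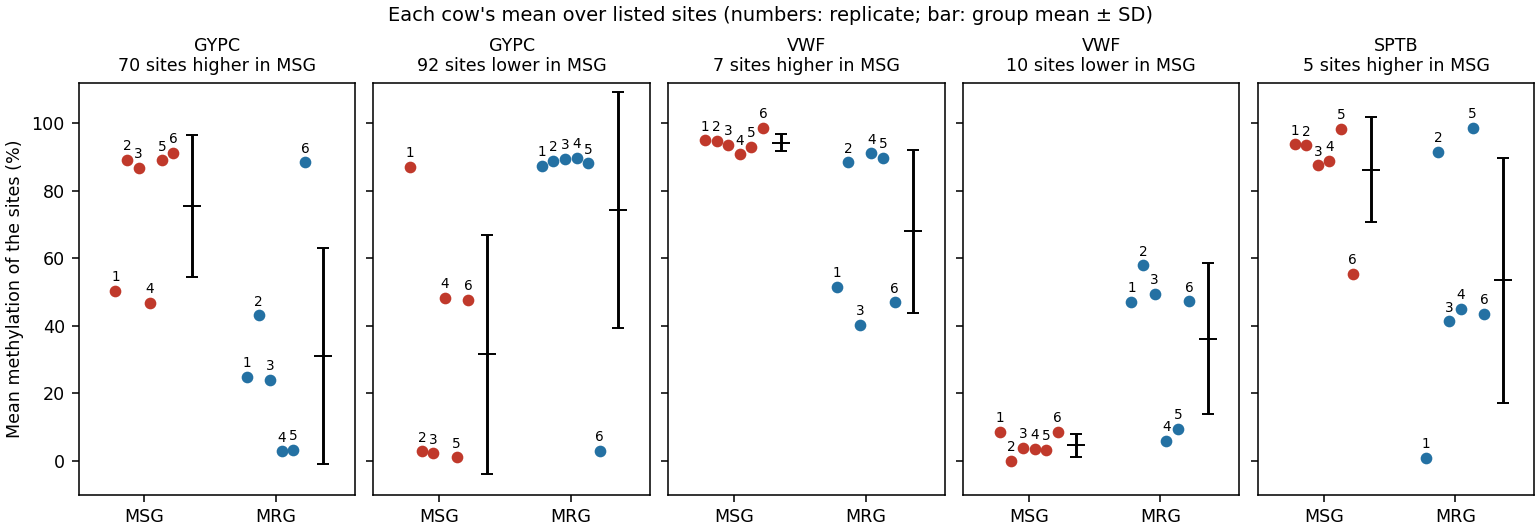
Mean percent methylated of each cow (vertical axis) over the listed sites of each gene that were higher or lower in MSG, with points labelled by the cow's number and bars at the group mean ± SD over 6 cows. At the GYPC sites lower in MSG, MRG cow 6 stands at 2.99% and its group's other cows between 87.4 and 89.7%.

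Values of exactly 0 marked most GYPC sites. At least 1 cow stood at 0 at 155 of the 162 sites (95.7%), against 78.3% of all listed sites. A few sets of cows at 0 recurred over many sites. At 69 sites between 143 and 240 kb, MSG cows 2, 3 and 5 and MRG cow 6 were at 0 and no other cow was. At those 69 sites the median level was 90.9% in MSG cow 1, 50% in MSG cow 4 and 45% in MSG cow 6. MRG cows 1 to 5 had medians from 88.9 to 93.3%. The levels thus fell into an unmethylated set, a middle set and a nearly fully methylated set of cows. Over all listed sites the same 4 cows were the only ones at 0 at 308 sites, of which 276 were on chromosome 2.

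A different set of cows was at 0 at the GYPC sites that were higher in MSG. At 32 such sites, spread from 5.63 to 268 kb, MRG cows 4 and 5 alone were at 0. The medians there were 51.7% in MSG cow 1 and 50% in MSG cow 4, and 92.9, 93.9, 100 and 97.1% in MSG cows 2, 3, 5 and 6. MRG cows 1, 2 and 3 had medians of 44.1, 40 and 41.7%, and MRG cow 6 of 91.3%. At another 26 sites between 129 and 213 kb, MRG cows 1 and 3 were at 0 together with cows 4 and 5. The pair at 0 with no other cow occurred at 831 sites of the whole table, 93 of them on chromosome 2, and the set of 4 at 138 sites, 45 of them on chromosome 2. Whether differences in DNA sequence between cows play a part in these values was not tested.

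**Figure D3:**
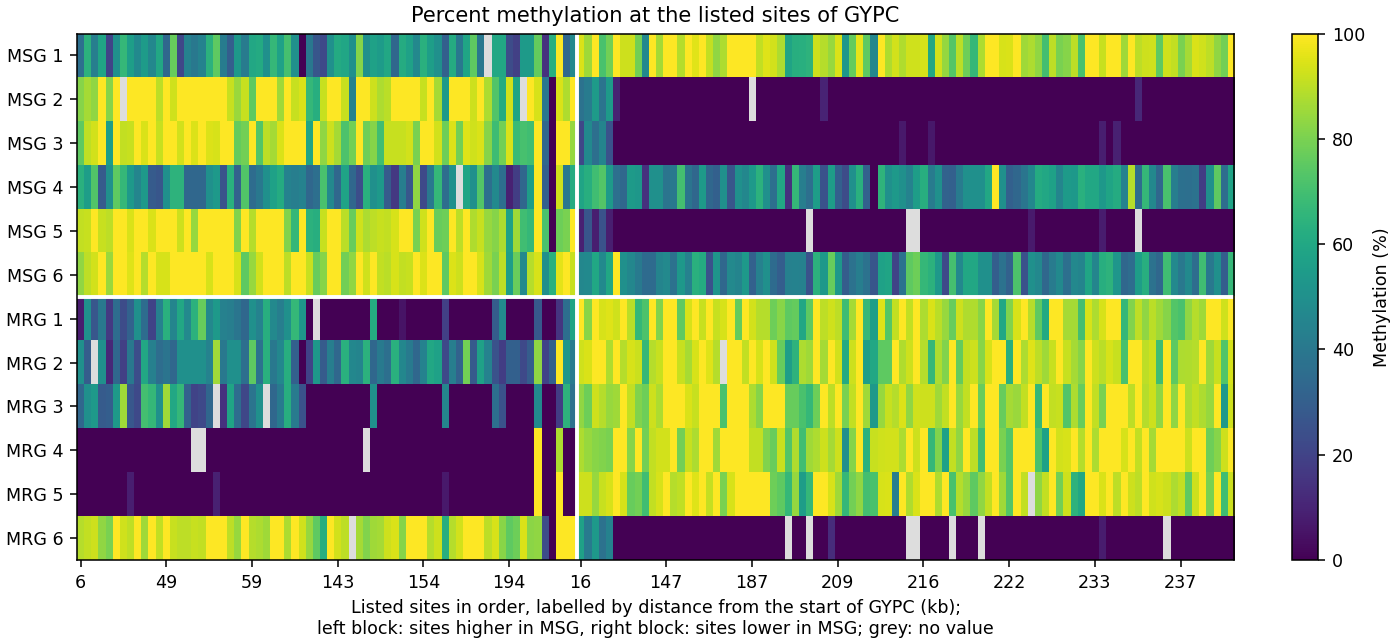
Percent methylated (colour) of each cow (rows) at the 162 GYPC sites (columns), with the 70 sites higher in MSG on the left and the 92 lower sites on the right, each ordered by distance from the gene's start and with grey for no value. MSG cows 2, 3 and 5 and MRG cow 6 stay at or near 0 over most of the right block, and MRG cows 4 and 5 over most of the left block.

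The higher GYPC sites were also described by stretch. One stretch was drawn to begin at the first site where MRG cows 1, 3, 4 and 5 were the cows at 0, so the low levels of those cows in it follow in part from how it was drawn. For MRG cows 1 and 3, the levels before it and in it were as follows. At the 12 higher sites inside the gene these cows averaged 31.8 and 47.7%, and at the 20 higher sites from 48.9 to 126 kb they averaged 51.7 and 41.1%. At the 35 higher sites of the drawn stretch, from 129 to 218 kb, they averaged 5.58 and 5.83%. MRG cow 2 stayed at 35.9, 46.7 and 41.4% over these stretches, and MRG cows 4 and 5 were at or below 3.05% in all 3. MRG cow 6 was the highest of its group in each, at 91.3, 93.6 and 83.6%. Beyond them lay only 3 higher sites, in 2 unlike places. At the site at 258 kb MRG cows 1 to 6 stood at 15.4, 100, 18.2, 87.5, 100 and 100%. Over the 2 sites at 268 kb they averaged 47.2, 47.3, 51.1, 0, 0 and 100%.

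Intron 1 of GYPC held the only run of lower sites in which no cow was at 0. A run is a series of listed sites of one direction with at most 1 kb between neighbours. These 5 sites lay at chr2:78901262-78901288, 15.9 kb from the start of the gene. MSG cows 1 to 6 averaged 86, 45.3, 35, 63.6, 15.5 and 52%, and MRG cows 94.2, 95.1, 85.4, 83.1, 91 and 46.8%. MRG cows 1 to 5 stood above 80%. MRG cows 3, 4 and 6 lay within the MSG range, and MSG cows 1, 4 and 6 lay within the MRG range. The means were 49.6 ± 24.2% and 82.6 ± 18.2% (SD, n = 6 each), a difference of -33.0 points.

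The listed GYPC sites formed 30 runs of higher sites and 23 runs of lower sites. The longest run by number of sites held 15 lower sites at chr2:79120257-79124073. MSG cows 1 to 6 averaged 88.4, 0.741, 0, 48, 0 and 45.8% over it, and MRG cows 84.9, 87.5, 89.5, 94.4, 90.4 and 0%. The groups overlapped at both ends, and the means were 30.5 ± 36.4% and 74.5 ± 36.6%. Runs of 8 lower sites at chr2:79094357-79095537, 8 at chr2:79104541-79105154 and 7 at chr2:79117919-79117994 had the same 4 cows at or near 0, with differences of -44.0, -42.9 and -41.2 points.

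Single GYPC sites with the largest differences of the cow means lay between 159 and 219 kb. At chr2:79052779-79052779 (minus strand), MSG cows stood at 75, 92.3, 92.9, 50, 88.2 and 100% and MRG cows at 0, 28.6, 0, 0, 0 and 100%, a difference of 61.6 points. At chr2:79044565-79044565 (plus strand), MSG cows stood at 61.5, 100, 94.7, 50, 100 and 94.7% and MRG cows at 0, 42.9, 0, 0, 0 and 88.9%, a difference of 61.5 points. At both of these sites MRG cow 6 alone reached the MSG range. In the other direction, the minus strand site at chr2:79104542-79104542 had MSG cows at 73.3, 0, 0, 30.8, 0 and 70.6% and MRG cows 1 to 5 at 76.9, 100, 100, 90.9 and 71.4%, with no value in MRG cow 6. The groups there overlapped only through MSG cow 1 at 73.3% and MRG cow 5 at 71.4%, and the difference was -58.7 points. At chr2:79047180-79047180 (minus strand), MSG cows stood at 90.9, 0, 0, 33.3, 0 and 25% and MRG cows at 100, 95, 100, 100, 91.3 and 0%, a difference of -56.2 points. There MRG cow 6 was level with the 3 MSG cows at 0. The smallest difference of cow means at a GYPC site was 16.0 points, at a site where the authors' deposited table gave 26.0.

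Both strands of a CpG were often listed. The 162 GYPC sites made up 104 CpGs, of which 58 (55.8%) had both cytosines in the table, against 28.1% of all listed CpGs. In all 58 the strands had the same direction, and the median difference between the strands of a cow was 5.13 points, against 5.56 over all listed CpGs. At VWF 5 of 12 CpGs and at SPTB 2 of 3 CpGs had both strands listed, again with the same direction. The strands of 1 CpG belong to the same place in the DNA and are not separate replicates.

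The tile table gives the methylation level of windows of 500 bases, and 8 of its rows carry the symbol GYPC. In it 1 GYPC tile was higher in MSG and 7 were lower, against 56.2% higher over all 1227 listed tiles. None of the 8 separated the groups, against 6.03% of all listed tiles. The authors' deposited table gave absolute differences from 25.2 to 32.1 points for them. No tile of VWF or SPTB was listed.

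The higher GYPC tile, at chr2:78943751-78944250, lay 58.4 kb from the start of the gene. MSG cows 1 to 6 had 64.8, 89.9, 86.8, 57.7, 91.1 and 89.7%, and MRG cows 61.4, 58.2, 54.2, 28.6, 35.5 and 93.4%. MRG cows 4 and 5 were lowest and MRG cow 6 was highest of all 12 cows. The means were 80 ± 14.8% and 55.2 ± 22.8%, a difference of 24.8 points, while its 4 listed sites differed by 38.4 points.

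The intronic GYPC tile, at chr2:78901001-78901500, holds the run of 5 lower sites in intron 1. Its MSG cows had 83.7, 43.6, 39.6, 65.8, 19.4 and 50%, and its MRG cows 90.9, 86.3, 83, 79.7, 86.8 and 46.1%. MRG cow 6 again lay among the lower MSG cows. The means were 50.3 ± 22.2% and 78.8 ± 16.5%, a difference of -28.4 points, close to the -33.0 points of its listed sites.

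The other lower GYPC tiles lay between 209 and 232 kb, and 2 pairs of them overlap and share sites. The tile at chr2:79094251-79094750 had MSG cows at 83.9, 1.92, 0, 40.3 and 61.6%, with no value in cow 5, and MRG cows at 86.7, 88.7, 86.3, 84.9, 91.4 and 2%. Its cow values were close to those of its 5 listed sites. The tile at chr2:79113751-79114250 had MSG cows at 81.9, 26.3, 27.6, 62.5, 28 and 54.6% and MRG cows at 76.9, 88.8, 80.6, 84, 81.4 and 30.6%. There the 4 lowest cows were between 26.3 and 30.6%, whereas over its 3 listed sites they were between 0 and 2.38%. The overlapping tiles starting at 79117501 and 79117751 had those 4 cows between 19 and 26.6%, against 0 to 2.49% over the 7 listed sites they share.

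The last pair of overlapping GYPC tiles lay 219 kb from the gene's start. In the tile starting at 79104251 MSG cows 2, 3 and 5 and MRG cow 6 stood at 24.7, 18.2, 27.5 and 23.5%. In the tile starting at 79104501 they stood at 8.57, 20.8, 24 and 0%. Their listed sites were at 0 in all 4 cows. The differences between group means were -28.9 and -26.7 points over these tiles and -44.1 and -42.5 points over their listed sites.

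**Figure D4:**
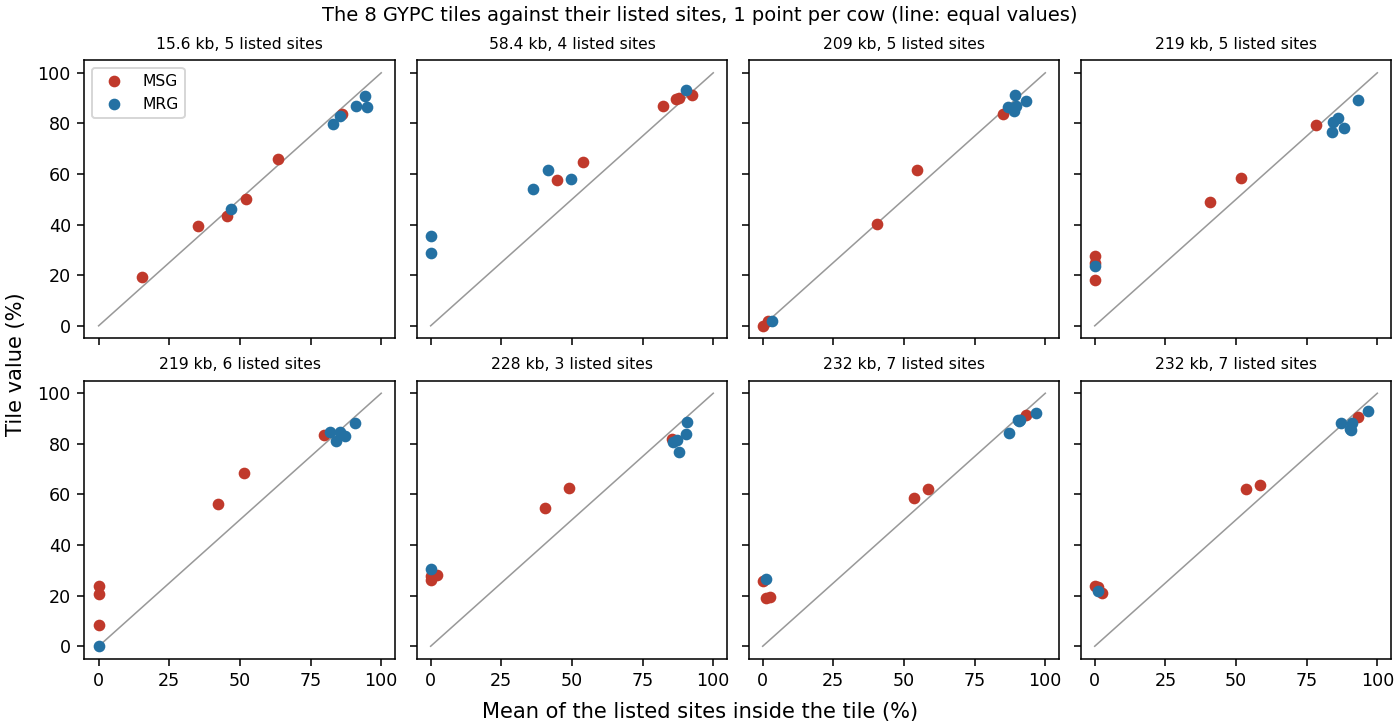
Percent methylated of each GYPC tile (vertical axis) against the mean of the listed sites inside it (horizontal axis), with 1 point per cow, 1 panel per tile and a line of equality. Cows with listed sites at or near 0 lie above the line in most panels, and at the tile at 209 kb they lie on or near it.

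VWF (ENSBTAG00000012265) lies at chr5:104223117-104345554 on the plus strand and is 122 kb long. Its 17 listed sites were all intronic, in introns 3, 10, 20, 21 and 22 of 51, between 4.82 and 66.1 kb from the gene's start. At the 7 higher sites MSG cows 1 to 6 averaged 95, 94.8, 93.6, 90.8, 93.1 and 98.6%. MRG cows averaged 51.5, 88.5, 40.3, 91.1, 89.9 and 47%. MRG cows 1, 3 and 6 lay near the middle of the scale, while MRG cows 2, 4 and 5 were close to or within the narrow MSG range. The means were 94.3 ± 2.59% and 68.0 ± 24.1% (SD, n = 6 each), a difference of 26.3 points, and no cow was at 0 at any of these sites.

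At the 10 lower VWF sites MSG cows 1 to 6 averaged 8.57, 0, 3.85, 3.64, 3.17 and 8.67%. MRG cows averaged 47.2, 57.9, 49.5, 6, 9.44 and 47.3%. MRG cows 4 and 5 stood close to the MSG cows, and MRG cows 1, 2, 3 and 6 were between 47.2 and 57.9%. The means were 4.65 ± 3.38% and 36.2 ± 22.4% (SD, n = 6 each), a difference of -31.6 points. At 8 of the 10 sites all 6 MSG cows and MRG cows 4 and 5 were at 0, while the medians of MRG cows 1, 2, 3 and 6 were 40, 46.7, 46.4 and 36.7%. That set of 8 cows was at 0 at 92 sites of the whole table, 26 of them on chromosome 5.

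The largest VWF run held 6 lower sites at chr5:104287406-104287913 in intron 21. All MSG cows averaged 0% over it, and MRG cows 38.9, 55.3, 50.5, 0, 0 and 44.3%. It contains both VWF sites with the largest negative differences, at 104287912 and 104287913, with -43.5 and -34.9 points. A pair of lower sites at chr5:104286242-104286243 in intron 20 had MSG at 0% and MRG cows at 51.6, 55, 42.3, 0, 0 and 46.7%. The pair at chr5:104289182-104289245 in intron 22 joins 2 unlike sites. At the site at 104289182 all MSG cows were at 0, whereas at 104289245 MSG cows stood at 85.7, 0, 38.5, 36.4, 28.6 and 86.7% and MRG cows at 100, 90.9, 50, 60, 94.4 and 83.3%.

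The largest higher VWF run held 4 sites at chr5:104257962-104258279 in intron 10. MSG cows averaged 94.9, 89.7, 94.4, 87.7, 96.4 and 97.5%, and MRG cows 45.1, 81.9, 38.2, 89.5, 91.5 and 53.2%. MRG cows 4 and 5 lay inside the MSG range and the rest of MRG below it. Its sites at 104257962 and 104258278 had the largest positive differences at VWF, 28.7 and 27.7 points.

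SPTB (ENSBTAG00000004732) lies at chr10:76890176-77019425 on the minus strand and is 129 kb long. Of its 5 listed sites 3 were in intron 1 of 35, and the other two, at chr10:77021818-77021819, lay at -2.39 kb from the start, upstream in the annotated promoter. Over the 5 sites MSG cows 1 to 6 averaged 93.8, 93.5, 87.6, 88.9, 98.5 and 55.4%. MRG cows averaged 0.952, 91.5, 41.3, 45, 98.8 and 43.5%. MRG cow 1 was almost unmethylated, MRG cows 3, 4 and 6 and MSG cow 6 were near the middle, and MRG cows 2 and 5 stood with the other MSG cows. The means were 86.3 ± 15.6% and 53.5 ± 36.3% (SD, n = 6 each), a difference of 32.8 points, which was 22.3 points without MRG cow 1.

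The SPTB promoter pair averaged 87.9, 90, 75.7, 84.4, 100 and 60.3% in MSG cows and 0, 82.6, 45.8, 38.7, 96.9 and 39.9% in MRG cows. In intron 1, the pair at chr10:77008488-77008489 had MSG cows at 100, 100, 97.2, 93.3, 100 and 41.5% and MRG cows at 2.38, 100, 40.7, 51.2, 100 and 45.5%. The site at 77013619 had MSG cows at 93.3, 87.5, 92.3, 88.9, 92.3 and 73.3% and MRG cows at 0, 92.3, 33.3, 45.5, 100 and 46.7%. In all 3 places MRG cow 1 was the lowest of the 12 cows and MSG cow 6 the lowest of its group. The largest SPTB site differences were 35.8 points at 77008489 and 35.0 points at 77013619.

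**Figure D5:**
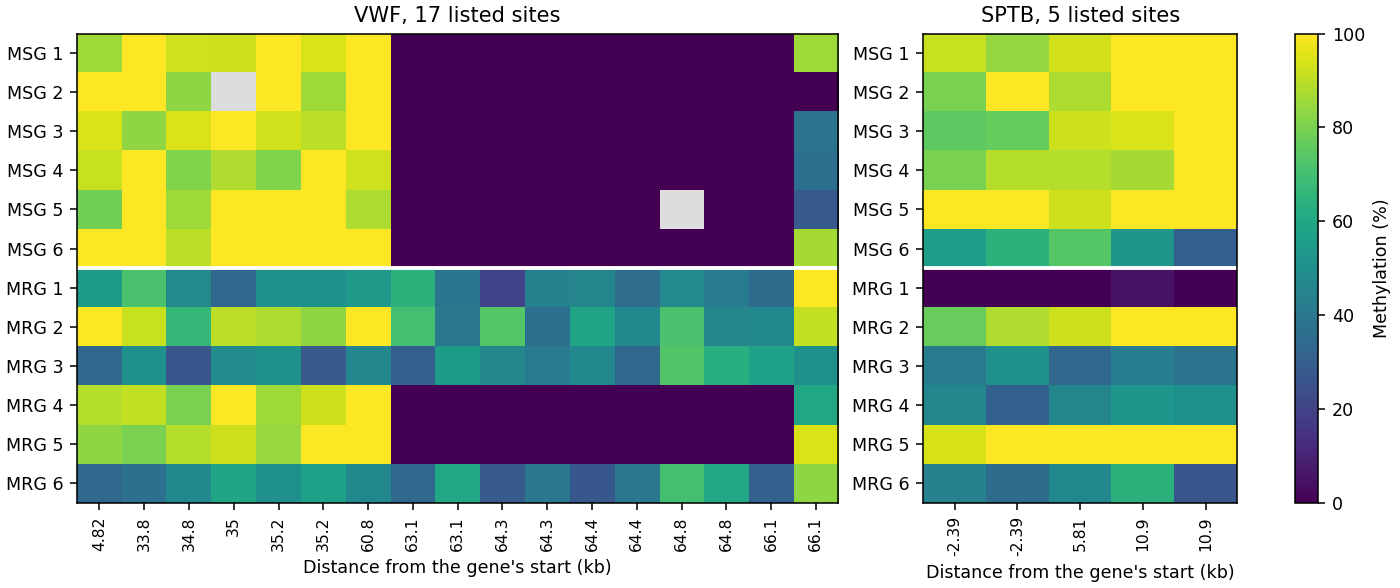
Percent methylated (colour) of each cow (rows) at the 17 VWF sites and the 5 SPTB sites (columns). MRG cows 4 and 5 share the MSG level at most VWF sites, and MRG cow 1 is at or near 0 at all SPTB sites.

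The order of the cows thus differed between the 3 genes. MRG cow 6 stood with MSG cows 2, 3 and 5 at GYPC, while MSG cow 1 stood with MRG cows 1 to 5 at the lower sites there. MRG cows 4 and 5 stood close to the MSG cows at VWF, as did MRG cow 2 at the higher VWF sites. At SPTB MRG cows 2 and 5 stood with the MSG cows other than cow 6. MRG cow 1, the lowest cow at SPTB, was near the top of the scale at the lower GYPC sites, at 87.4%. The cows at 0 were likewise different: 4 cows of both groups at most lower GYPC sites, 8 cows at most lower VWF sites, and MRG cow 1 alone at 4 of the 5 SPTB sites.

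Genes that act with the members were counted from lists chosen with earlier results of these data known. Sites in this and the later lists carry a symbol as the nearest gene, and not all lay inside it. Inside the gene were 3 of 18 CD47 sites, 50 of 72 ADD2 sites and 13 of 13 EPB41 sites. Of the 30 genes listed for the red cell membrane and its skeleton, 17 had a listed site. Without GYPC and SPTB, 98 of 138 sites in that list (71%) were higher in MSG, with a median difference of 29.7 points, against 52.7% higher and a median of 22.7 points over all listed sites. In these lists the signed median mainly follows the share higher, because every site was selected at an absolute difference of at least 25 points. It is not a separate measure of size. By gene, members included, 10 were mostly higher and 6 mostly lower. The genes with most sites were ADD2, encoding the spectrin-binding protein beta-adducin, with 52 of 72 sites higher, CD47, an integral membrane protein, with 14 of 18, and EPB41, encoding the skeletal protein that binds glycophorin C, with 13 of 13. At the higher ADD2 sites MSG averaged 82.0 ± 6.61% and MRG 44.1 ± 9.93%, and 13 of its 72 sites separated the groups, against 2.36% of all listed sites. At the EPB41 sites MSG averaged 76.4 ± 6.74% and MRG 47.0 ± 22.7%.

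Of 24 genes for haemoglobin, haem synthesis and erythroid transcription factors, 7 had a listed site. In that list 9 of 25 sites (36%) were higher, against 52.7% of all listed sites, with a median of -25.4 points. By gene, 1 was mostly higher and 5 mostly lower. UROS, an enzyme of haem synthesis, held 16 of the 25 sites, with 7 higher and 9 lower. BCL11A and GFI1B, transcription factors of blood cells, held 2 each, with 1 and 0 higher. Of 19 genes of von Willebrand factor and platelet adhesion, 9 had a listed site, and without VWF 37 of 52 sites (71.2%) were higher, with a median of 30.9 points. STXBP5 alone gave 21 of these 52 sites, and by gene, VWF included, 4 were mostly higher and 5 mostly lower. STXBP5, a regulator of vesicle release, had 21 of 21 sites higher, with MSG at 77.3 ± 17% and MRG at 35.0 ± 18.6%. MMRN1, encoding multimerin of platelets and endothelium, had 8 of 11 higher, and ITGA2, a collagen receptor subunit, had 1 of 5 higher. Of 20 further platelet and megakaryocyte genes, 9 had a listed site, with 68 of 97 sites (70.1%) higher and a median of 25.6 points, and 5 genes mostly higher against 3 mostly lower. In that list the adhesive granule protein gene THBS1 had 33 of 45 higher, the transcription factor gene RUNX1 had 16 of 19, and F13A1, encoding a factor XIII subunit, had 6 of 14.

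The genes whose cow profile was most like that of each member were found by the mean absolute difference, over the 12 cows, of levels centred within each group. For the lower GYPC sites they included CAVIN2 and NABP1, with 2.58 and 3.39 points, against a median of 30.6 points over 2961 genes. Both lie on chromosome 2, and their lower sites begin 1257 and 930 kb beyond the last lower GYPC site. For the lower VWF sites they were UQCRFS1, ZBTB8B and RAP2B, with 6.44, 6.55 and 6.55 points, against a median of 19.7, on chromosomes 18, 2 and 1. For SPTB they were ATAD5, LOC112443618 and ADAP2, with 4.21, 6.61 and 9.54 points, against a median of 25.3 over 2962 genes. ATAD5 and ADAP2 lie on chromosome 19 and LOC112443618 on chromosome 2. The profile of LOC112443618 was of sites lower in MSG, unlike the SPTB sites, and centring within groups removes that direction. This is a description over 12 cows that share the selection of sites, with no test.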

How the data were processed

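DNA from the blood of 12 cows was converted enzymatically (TET2, T4-BGT and APOBEC3A), per the labels' protocols. The assay cannot separate an unmethylated cytosine from a thymine carried in a cow's genome, and genotypes were not analysed here. The submitters' processing notes name fastp 0.23.1, Bismark, DRAGEN, ChIPseeker 1.32.1 and the build ARS-UCD1.2. How the authors tested differences is not given in the sources used here. Deposited tables give a percent methylated per cow. They also give the authors' difference, used as a score with a sign, and the authors' p-values and q-values. Per the file headers, 36 numbered columns of coverage and read counts in the tile table name no cow and were left out, so the depth behind a value is unknown and no interval is given.

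Rows were chosen by gene symbol, and cow values were averaged over sites, then over cows, with Python 3.11.15 and pandas 2.3.3. No test between the groups was run, because the authors selected the rows on the same contrast and cows. Named sites, runs and genes follow a rule: all tiles, up to 4 largest runs per gene, promoter sites, the 2 largest site differences in each direction, the 3 genes per list with most sites, and the 3 genes with the closest profile among those with at least 10 sites of one direction. Some genes that the rule names are not reported here. The GYPC site that separated the groups, the intron 1 run, the smallest difference and the stretches were added after their values were seen. Members and lists were chosen with earlier results of these data known. Within each group, a cow far from the others was marked by Dixon's gap ratio at the 95% level. Alternatives left out sites with a cow at 0, sites outside the gene, sites with a missing cow, sites under 40 points and each cow in turn, or averaged strands. Titles in the labels give each cow its own identifier.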

Additional observations from a re-analysis of the deposited data

Results flagged for a closer look

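In 19 of 66 groups of cows, the highest or lowest cow stood far from the other five relative to the range of its group; chance flags about 1 in 20 groups, and these groups share cows and sites. MRG cow 6 was that cow 14 times. It was at 2.99% over the lower GYPC sites. Over the GYPC tiles starting at 78901001, 79094251, 79104251, 79104501, 79113751, 79117501 and 79117751 it was at 46.1, 2, 23.5, 0, 30.6, 26.6 and 21.8%. Over the GYPC runs starting at 79120257, 79094357, 79104541 and 79117919 it was at 0, 1.79, 0 and 1.1%. At the GYPC sites 79052779 and 79047180 it was at 100 and 0%, and at the latter MSG cow 1 stood apart from its group at 90.9%. MSG cow 6 stood apart 4 times at SPTB, at 55.4% over all 5 sites, 41.5% over the pair at 77008488, 30% at 77008489 and 73.3% at 77013619.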

How the results depend on the processing

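With both strands of a CpG averaged, no mean difference changed direction or moved beyond the spread between cows. The percent of sites higher in MSG was then 42.3, 50 and 100 at GYPC, VWF and SPTB, against 43.2, 41.2 and 100. Counts of separated sites stayed at 1, 0 and 0. Sites inside the GYPC gene model alone gave a mean difference of 21.5 points, against -5.44 over all its sites, with 70.6% of 17 sites higher and 0 separated. The 7 GYPC sites with no cow at 0 gave a mean difference of -17.3 points, with 28.6% of them higher and 0 separated, and sites with a value in all cows gave 0 separated. Without sites with a cow at 0, VWF had a mean difference of 26.3 points, against -7.94, with 100% of 7 sites higher. At 40 points or more VWF kept 1 site, at -43.5 points and 0% higher, and SPTB kept none. Leaving out each cow in turn gave mean differences from -9.58 to -2.84 points at GYPC, -9.6 to -3.71 at VWF and 22.3 to 41.8 at SPTB. The percent higher stayed at 43.2, 41.2 and 100. Separated sites ran from 1 to 32 at GYPC (9 without MSG cow 1, 3 without MRG cow 2, 2 without MRG cow 5, 32 without MRG cow 6). They ran from 0 to 1 at VWF (1 without MSG cow 3, MSG cow 4 or MRG cow 5) and stayed at 0 at SPTB. The share of separated sites over all listed sites was not counted with a cow left out. No paired analysis was possible because the cow numbers only name cows and the groups were not tested against each other. Depth was not used, so the precision of single values is unknown.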

Other observations

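Marker genes of white cells had listed sites, which carry a symbol as the nearest gene. Among the genes named here, those inside the gene ran from 0 of 22 at CEBPD to 25 of 25 at BANK1, with 7 of 68 at IL5RA. Of the neutrophil and eosinophil list 75 of 83 sites (90.4%) were higher in MSG, against 52.7% of all listed sites, with IL5RA, which held most of them, at 64 of 68, MPO at 9 of 10 and CXCR1 at 1 of 3. Of the monocyte list 42 of 68 (61.8%) were higher, with CD163 at 25 of 26 and CEBPD at 13 of 22. Of the T and NK cell list 164 of 233 (70.4%) were higher, with LEF1 at 54 of 69, THEMIS at 50 of 69 and BCL11B at 23 of 27. Of the B cell list 25 of 34 (73.5%) were higher, with BANK1 at 19 of 25, PAX5 at 2 of 3 and CD79B at 1 of 2. By gene, those mostly higher and mostly lower numbered 3 and 2 in the neutrophil and eosinophil list, 3 and 2 in the monocyte list, 6 and 5 in the T and NK cell list, and 4 and 1 in the B cell list. Their part in the values at GYPC, VWF and SPTB was not tested.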
